A study of Homo sapiens with 6 samples.

Results

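The immediate early genes and feedback genes of the mitogen-activated protein kinase (MAPK) cascade were followed in a global run-on sequencing (GRO-seq) study of a human melanoma line. They were taken by symbol: CYR61, FOS, JUN, JUNB, EGR1, IER2, IER3, DUSP6, SPRY2 and SPRY4. All 10 have a row among the 12438 gene symbols of the deposited tables. Immediate early genes are switched on within minutes of a growth signal, without new protein synthesis, largely through serum response factor and its ETS-family partners once the kinase ERK phosphorylates them. Their products include the AP-1 subunits FOS, JUN and JUNB and the zinc finger factor EGR1. A slower set, among them the ERK phosphatase DUSP6 and the Sprouty proteins SPRY2 and SPRY4, feeds back to restrain the same cascade. In melanoma with mutant BRAF the cascade is active without an outside signal, and DUSP6, SPRY2 and SPRY4 are commonly used as readouts of its output.

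The cells were A375, an established malignant melanoma line that carries mutant BRAF, so all groups share that mutation and a single cell line stands for the tumour. Cells were treated for 48 h with A771726 at 25 µM, with leflunomide at 25 µM, or with the solvent DMSO. Leflunomide is a prodrug with an intact isoxazole ring, and A771726, also called teriflunomide, is its ring-opened active form. A771726 inhibits dihydroorotate dehydrogenase, an enzyme of pyrimidine nucleotide synthesis, and leflunomide, as a prodrug, does so mainly through this active form. Each group held 2 libraries, 6 in all. The labels do not say that the replicates were separate cultures, so p-values measure the spread between these libraries, which may be technical.

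In GRO-seq, polymerases already engaged on DNA run on for a short stretch in nuclei taken from the cells, and the RNA made in that run is sequenced. It measures where polymerases are and not how much mRNA has accumulated. For each gene the authors deposited a mean read density at the promoter and over the gene body, and their traveling ratio, which is promoter over gene body density and is high when polymerase stays near the start. The deposited values are the authors' means per group. Each library's own values were worked out from the decimals of those means, as described under the processing. Within a group the library in which 1 promoter read is worth less is called library 1. Which of the labels' replicates it is remains unknown, and the numbers pair nothing across groups.

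Promoter sequences of EGR1, FOS and SPRY2 are shown because the promoter values of these 3 genes stood furthest apart between groups. Each is the 250 bases before the annotated start, 5′ to 3′ on the gene's strand, from RefSeq on the build GRCh38.p14. The coordinates are chr5:138465229-138465478 on the plus strand for EGR1, chr14:75278578-75278827 on the plus strand for FOS and chr13:80341127-80341376 on the minus strand for SPRY2. Capitals mark matches, on either strand, to the CArG box that serum response factor binds, the core TGACG of the cyclic AMP response element, the ETS core CCGGAA, the EGR site GCGGGGGCG or the TATA box TATAAA.
EGR1: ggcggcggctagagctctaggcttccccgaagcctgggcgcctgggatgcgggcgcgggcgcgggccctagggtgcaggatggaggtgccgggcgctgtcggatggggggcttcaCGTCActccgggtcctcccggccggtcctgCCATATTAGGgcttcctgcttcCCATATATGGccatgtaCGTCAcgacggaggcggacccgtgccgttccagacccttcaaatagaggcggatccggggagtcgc
FOS: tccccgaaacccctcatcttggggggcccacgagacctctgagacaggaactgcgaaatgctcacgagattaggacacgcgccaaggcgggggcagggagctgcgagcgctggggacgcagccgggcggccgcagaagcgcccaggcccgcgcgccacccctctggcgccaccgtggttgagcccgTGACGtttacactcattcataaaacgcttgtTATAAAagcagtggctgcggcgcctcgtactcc
SPRY2: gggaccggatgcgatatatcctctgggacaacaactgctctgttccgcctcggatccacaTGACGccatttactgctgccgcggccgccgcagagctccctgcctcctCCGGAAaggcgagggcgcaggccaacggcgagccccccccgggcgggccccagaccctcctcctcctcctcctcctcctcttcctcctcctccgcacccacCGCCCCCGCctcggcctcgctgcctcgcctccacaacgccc

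EGR1 held 2 CArG boxes, at 105 to 96 and 83 to 74 bases before the start, and it was the 1 gene with such a box among the 8 members whose promoter sequence was matched. CArG boxes were found in 1.16% of the 35116 promoters of the same length. FOS held a TATA box at 33 to 28 bases and a TGACG core at 64 to 60 bases before its start. TATA boxes were found in 10.7% of all promoters and in 2 members, FOS and JUNB, where the box lay 31 to 26 bases before the start. SPRY2 held an EGR site at 41 to 33 bases, an ETS core at 142 to 137 bases and a TGACG core at 190 to 186 bases before its start. EGR sites were found in 4.72% and ETS cores in 14.5% of all promoters, and IER2 was the other member with an ETS core. The TGACG core was found in 21.2% of all promoters and in 7 of the 8 members. The whole element TGACGTCA, which contains that core, was found in 0 members and 1.65% of all promoters, the AP-1 site TGANTCA in 0 members and 6.57%, and the TEAD site GGAATG in 0 members and 11.9%. These are letter matches in a fixed window. They say nothing of sites further from the start, or of whether a factor was bound. The sequences of CYR61 and IER3 were not used here.

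The depth of the libraries is not given in the sources used here. In promoters, 1 read was worth a density of 0.0241 and 0.0313 in the A771726 libraries, 0.0347 and 0.0376 in the leflunomide libraries and 0.0438 and 0.0520 in the DMSO libraries, so a value of 0 allows densities up to 0.0722 and 0.0939, 0.104 and 0.113, and 0.131 and 0.156 in the same order (3 reads). These limits cover counting error only, and amplified reads without molecular identifiers are not independent molecules. The number of reads in gene bodies is not given and was not worked out here. Low gene body densities may rest on few reads, and their counting error is not bounded. The median gene body density of 3516 genes was 0.0276 and 0.0225 in the A771726 libraries, 0.0373 and 0.0348 in the leflunomide libraries and 0.0402 and 0.0346 in the DMSO libraries. Scaling between libraries is not described in the sources used here, so a shift of all genes and a change in their transcription cannot be told apart, and members are also set against the change of the median gene. In such bulk libraries fewer cells in a given state and less transcription per cell cannot be told apart either. Of the melanocyte lineage markers listed, SOX10 and MIA were at percentiles 98.6 and 97.6 of gene body density, PAX3 at 71.9, MITF and PMEL at 48.8 and 48.5 and MLANA at 28.7. Among markers of other cell types the keratinocyte gene KRT14 was at percentile 37.2, the endothelial gene PECAM1 at 26.1 and the fibroblast gene COL1A1 at 12.1. The pigment genes TYR, TYRP1 and DCT, and markers of blood and liver cells, were not analysed here.

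Most of the 10 genes were heavily transcribed in these cells. By gene body density, IER3 stood at percentile 99.2 of all genes, DUSP6 at 98.9, IER2 at 98.02, SPRY2 at 97.2, SPRY4 at 97.0 and JUNB at 96.5. EGR1 was at percentile 86.3, JUN at 76.3, CYR61 at 76.1 and FOS at 60.9. In the authors' means IER3 had 0.382 with A771726, 0.540 with leflunomide and 0.499 with DMSO, while FOS had 0.0135, 0.0369 and 0.0218 in the same groups. All 10 genes passed the filters on the means and on the library values.

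With A771726, gene body density was lower than with DMSO in 9 of the 10 genes in the means, and with leflunomide in 6 of 10. The median of all 8706 genes was itself lower than with DMSO, at −0.52 and −0.06 in log2. Against that median, 6 of the 10 members were lower with A771726 and 6 with leflunomide, so these counts do not set the members apart. CYR61, which encodes a secreted matrix protein that binds integrins, and SPRY2 were the 2 genes at least 2-fold lower with A771726 than with DMSO, where 18.7% of 8706 genes were that much lower, and 0 members were at least 2-fold higher, against 0.85% of genes. Relative to the median gene 0 members were 2-fold lower, at −0.92 in log2 for CYR61 and −0.70 for SPRY2. With leflunomide over DMSO 0 members were at least 2-fold lower or higher, against 4.5% and 1.85% of genes. The members' median log2 change was −0.59 with A771726 over DMSO, beside −0.52 for all genes, and −0.14 with leflunomide over DMSO, beside −0.06 for all genes. In the fit of library values with limma, 0 of the 10 genes had an adjusted p under 0.05 for A771726 over DMSO, leflunomide over DMSO or A771726 over leflunomide, where 0%, 0% and 0% of 4954 genes did. At an unadjusted p under 0.05, that limma fit had 1118, 234 and 757 genes in these comparisons.

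**Figure D1:**
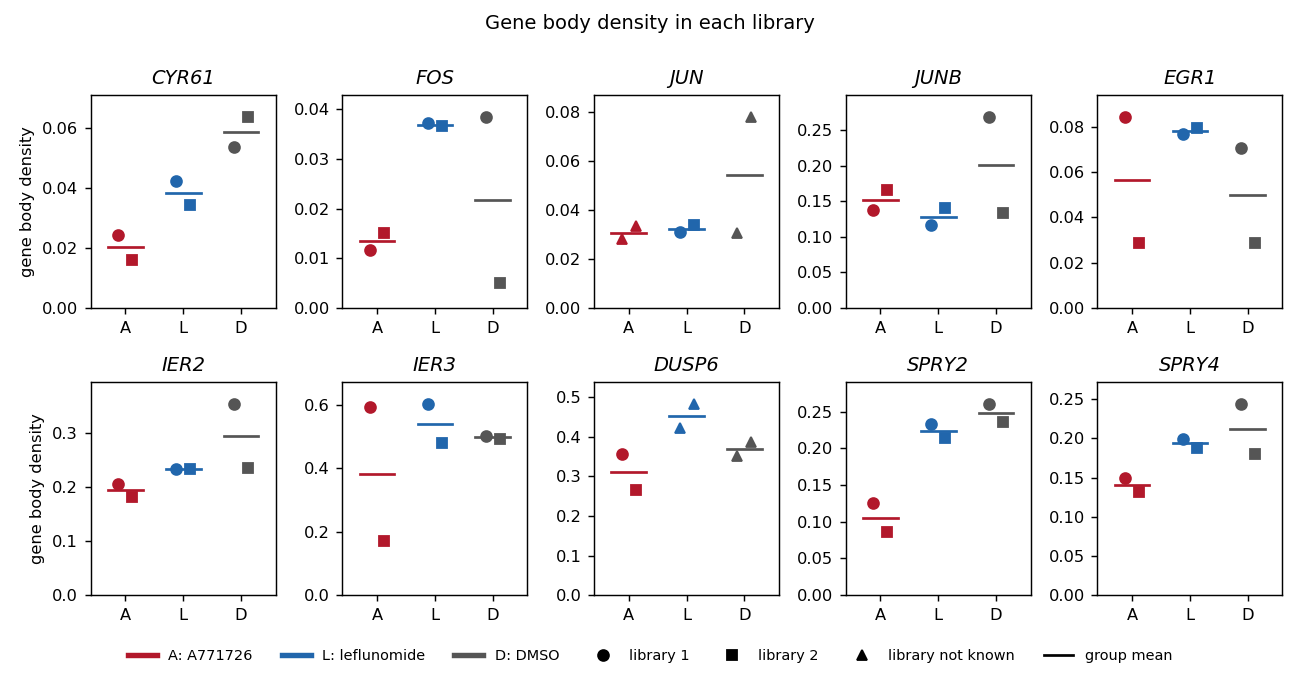
Gene body density (vertical axes, density in the authors' unit) of the 10 genes in each of the 6 libraries, with A771726 in red, leflunomide in blue and DMSO in grey; horizontal lines are group means and triangles mark pairs whose library is not known. CYR61, IER2 and SPRY2 show A771726 lowest, leflunomide between and DMSO highest with no overlap, an order found in 9.89% of 4954 genes. The 2 DMSO libraries of FOS are 7.53-fold apart, at low densities of 0.0384 and 0.0051.

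CYR61 (NM_001554) had gene body densities of 0.0244 and 0.0159 in the A771726 libraries, 0.0423 and 0.0344 in the leflunomide libraries and 0.0534 and 0.0634 in the DMSO libraries. The 3 groups did not overlap, with both A771726 libraries lowest and both DMSO libraries highest. Counting error in these values was not bounded, and the step from leflunomide to DMSO may lie within it. The limma estimate for A771726 over DMSO was −1.47 on the log2 scale (95% interval −2.28 to −0.65), with an unadjusted p of 0.00337 and an adjusted p of 0.121 over all genes tested. Relative to the median gene, the change of the means was −0.92 in log2, at percentile 6.59 of genes. For leflunomide over DMSO the limma estimate was −0.58 (−1.39 to 0.23, adjusted p = 0.999).

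SPRY2 (NM_005842), an inhibitor that acts between receptor tyrosine kinases and RAF, had 0.125 and 0.0856 with A771726, 0.233 and 0.215 with leflunomide and 0.260 and 0.236 with DMSO. Its groups fell in the same order without overlap, but leflunomide lay close to DMSO and A771726 apart from both. The limma estimate was −1.24 (−1.92 to −0.56) for A771726 over DMSO, with an unadjusted p of 0.00319 and an adjusted p of 0.121. For leflunomide over DMSO it was −0.14 (−0.83 to 0.54, limma adjusted p = 0.999). Relative to the median gene, the change of the SPRY2 means with A771726 was −0.70 in log2, at percentile 11.5 of genes.

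The other Sprouty gene, SPRY4, had gene body densities of 0.149 and 0.131 with A771726, 0.199 and 0.188 with leflunomide and 0.243 and 0.180 with DMSO. Both A771726 libraries lay below both DMSO libraries, and the leflunomide libraries lay within the DMSO range. The limma estimate for A771726 over DMSO was −0.58 (−1.23 to 0.08, adjusted p = 0.257). Relative to the median gene the means differed by −0.07 in log2, so SPRY4 stood with the median gene and SPRY2 below it.

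DUSP6, the phosphatase that removes the activating phosphates from ERK, had 0.357 and 0.265 with A771726, 0.422 and 0.481 with leflunomide and 0.351 and 0.385 with DMSO. Both leflunomide values lay above both DMSO values, and the A771726 values overlapped those of DMSO. Limma gave −0.26 (−0.90 to 0.39, adjusted p = 0.549) for A771726 over DMSO and 0.29 (−0.35 to 0.93, adjusted p = 0.999) for leflunomide over DMSO. IER3, a survival regulator that ERK phosphorylates, had 0.593 and 0.172 with A771726, 0.602 and 0.479 with leflunomide and 0.504 and 0.494 with DMSO. Its A771726 libraries lay apart, one below all other values and the other above both DMSO values, and limma gave −0.64 (−1.87 to 0.59, adjusted p = 0.442) for A771726 over DMSO. Without A771726 library 2 that estimate was 0.25.

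The genes of the AP-1 subunits varied more within DMSO than between groups. FOS (NM_005252) had 0.0117 and 0.0152 with A771726, 0.0372 and 0.0366 with leflunomide and 0.0384 and 0.0051 with DMSO. One DMSO library of FOS lay above and the other below all A771726 values, and leflunomide was tight. JUN had 0.0281 and 0.0335 with A771726, 0.0311 and 0.0337 with leflunomide and 0.0305 and 0.0777 with DMSO, so that all but 1 of its 6 values lay between 0.0281 and 0.0337. JUNB had 0.138 and 0.166 with A771726, 0.116 and 0.140 with leflunomide and 0.268 and 0.133 with DMSO, with 1 high DMSO library. Limma estimates for A771726 over DMSO were −0.14 (−1.81 to 1.52) for FOS, −0.64 (−1.70 to 0.42) for JUN and −0.31 (−1.19 to 0.57) for JUNB. The direction of FOS and JUNB turned to 0.40 and 0.23 when libraries were centred on their medians, and to 1.10 and 0.19 without DMSO library 1. Without A771726 library 1 the estimate of FOS was 0.02.

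EGR1 (NM_001964) had gene body densities of 0.0841 and 0.0288 with A771726, 0.0766 and 0.0795 with leflunomide and 0.0708 and 0.0287 with DMSO. Both leflunomide libraries lay above both DMSO libraries, while A771726 and DMSO each had 1 high and 1 low library. Limma gave 0.12 (−1.25 to 1.49, adjusted p = 0.897) for A771726 over DMSO and 0.76 (−0.61 to 2.13, adjusted p = 0.999) for leflunomide over DMSO. The estimate for A771726 over DMSO was −0.62 without A771726 library 1 and −0.50 without DMSO library 2. IER2, which encodes a small nuclear protein, had 0.206 and 0.182 with A771726, 0.233 and 0.234 with leflunomide and 0.353 and 0.236 with DMSO. Its groups did not overlap, but leflunomide library 2 and DMSO library 2 differed by little, and limma gave −0.57 (−1.25 to 0.11, adjusted p = 0.267) for A771726 over DMSO.

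Both A771726 libraries lay below both DMSO libraries in 4 members, CYR61, IER2, SPRY2 and SPRY4, where 55.7% of 4954 genes did so, and above them in 0 members, against 2.08% of genes. Both leflunomide libraries lay below DMSO in CYR61, IER2 and SPRY2 (3 members, against 21.4% of genes) and above DMSO in EGR1 and DUSP6 (2 members, against 13.9%). The full order, A771726 below leflunomide below DMSO, held in CYR61, IER2 and SPRY2, and in 9.89% of genes. After each library was centred on its own median, which could be done for the 8 members and 3516 genes with the library known, the order held in CYR61 and SPRY2, and in 77 genes (2.19%). The centred log2 density of CYR61 was −0.16 and −0.45 with A771726, 0.17 and −0.02 with leflunomide and 0.39 and 0.84 with DMSO. That of SPRY2 was 2.10 and 1.83 with A771726, 2.58 and 2.55 with leflunomide and 2.63 and 2.70 with DMSO. These 2 genes were therefore lowest with A771726 also beside the other genes of the same libraries.

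On the centred values, A771726 lay below DMSO in CYR61 and SPRY2 (18.6% of genes) and above DMSO in 0 members (18.7%). Centred leflunomide values lay below DMSO in CYR61, IER2 and SPRY2 (19.2% of genes) and above DMSO in FOS and EGR1 (17.6%). Between the compounds, centred A771726 values lay below leflunomide in CYR61, FOS and SPRY2 (17.3%) and above it in JUNB and IER2 (18.2%). Each of these counts is 0 to 3 of 8 members, too few to set apart from such shares.

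The 2 libraries of a group were compared next, since a wide gap there limits what a gap between groups can show. A narrow gap between 2 libraries does not show that the spread of a gene is small. In DMSO, FOS was 7.53-fold, EGR1 2.47-fold, JUNB 2.01-fold and IER2 1.497-fold higher in library 1 than in library 2. JUN was 2.55-fold apart in DMSO, in libraries that could not be told apart. The other 5 genes were closer in DMSO, with 1.02-fold for IER3, 1.10-fold for SPRY2, 1.10-fold for DUSP6, 1.35-fold for SPRY4 and 1.19-fold for CYR61, which was higher in library 2. In A771726, IER3 and EGR1 were 3.46-fold and 2.92-fold higher in library 1, while in leflunomide 0 members were 2-fold apart. At least 2-fold gaps between libraries occurred in 18.6% of all genes with A771726, in 8.18% with leflunomide and in 13.0% with DMSO. The 7.53-fold gap of FOS lay between 0.0384 and 0.0051, the latter the lowest gene body density of any member. At such a density a few reads can make a large fold. The part of counting error, handling, culture or batch in these gaps was not tested.

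**Figure D2:**
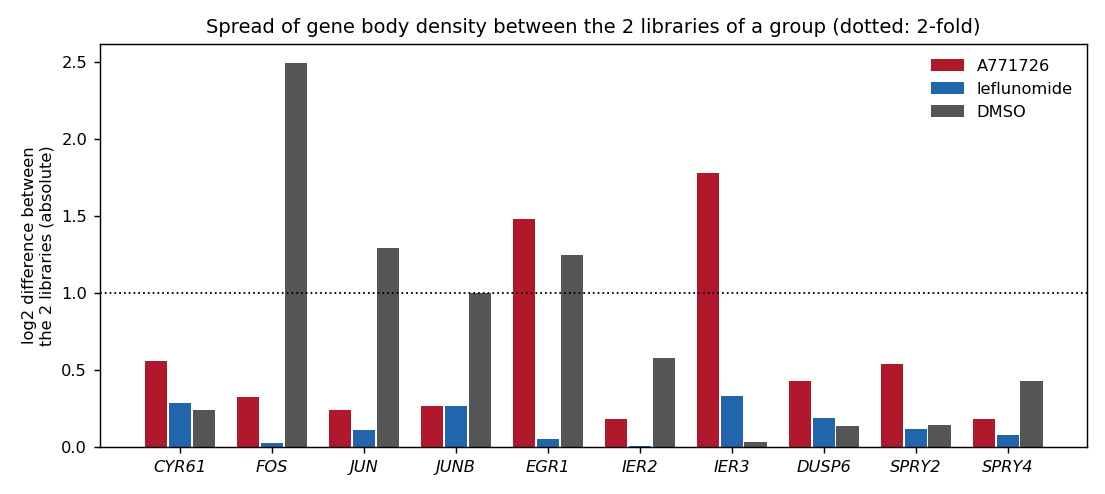
Absolute log2 difference in gene body density between the 2 libraries of a group (vertical axis) for the 10 genes, with bars for A771726, leflunomide and DMSO; the dotted line is a 2-fold gap. FOS, JUN, EGR1 and JUNB pass or reach the line in DMSO, EGR1 and IER3 in A771726, and none in leflunomide.

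At promoters the feedback gene SPRY2 and the transcription factor genes FOS and EGR1 differed most in the means. SPRY2 was the 1 member at least 2-fold higher with A771726 than with DMSO, where 20.8% of 8837 genes were, and EGR1 the 1 member at least 2-fold lower, where 26% were. With leflunomide over DMSO FOS was at least 2-fold higher (30.6% of genes) and IER2 at least 2-fold lower (16%). With a pseudocount 5 times larger EGR1 with A771726 and IER2 with leflunomide were no longer 2-fold lower than with DMSO. Median promoter changes of the members were −0.10 for A771726 over DMSO and 0.00 for leflunomide over DMSO, beside 0 and 0.22 for all genes. By limma, 0 members had an adjusted p under 0.05 for A771726 over DMSO, leflunomide over DMSO or A771726 over leflunomide, where 0.25%, 0.192% and 0% of 5208 genes did; at an unadjusted p under 0.05 there were 202, 115 and 132 genes.

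SPRY2 had promoter densities of 0.564 and 0.595 (19 reads in library 2) with A771726, 0.173 and 0.263 (5 and 7 reads) with leflunomide and 0.219 and 0 (5 and 0 reads) with DMSO. Both A771726 libraries lay above all other libraries, and leflunomide overlapped DMSO. The promoter of SPRY2 was thus higher with A771726 in the same libraries in which its gene body was lower. The limma estimate for A771726 over DMSO was 3.22 (1.26 to 5.18), with an unadjusted p of 0.0013 and an adjusted p of 0.321. Without DMSO library 1, which leaves the DMSO library at 0, it was 5.10 with a limma adjusted p of 0.000701, and over all alternatives the adjusted p ran up to 0.998. These estimates use the DMSO library at 0 with the pseudocount added, so their size depends on that pseudocount and they are not bounds. The limit of 3 reads in that library is a density of 0.156.

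FOS had promoter densities of 0.0962 and 0 (4 and 0 reads) with A771726, 0.416 and 0.338 (12 and 9 reads) with leflunomide and 0 and 0.052 (0 and 1 read) with DMSO. Both leflunomide libraries lay above all other libraries, and the A771726 and DMSO values were at or near the limit of 3 reads. The limma estimates were 3.50 (0.56 to 6.44, adjusted p = 0.996) for leflunomide over DMSO and 0.36 (−2.59 to 3.30, adjusted p = 0.995) for A771726 over DMSO. EGR1 had 0.265 and 0 (11 and 0 reads) with A771726, 0.416 and 0.188 (12 and 5 reads) with leflunomide and 0.454 and 0.208 (4 reads in library 2) with DMSO. All its groups overlapped, since 1 of its A771726 libraries had 11 reads and the other none, and limma gave −2.22 (−4.27 to −0.17, adjusted p = 0.995) for A771726 over DMSO. The sizes of these estimates for FOS and EGR1, too, depend on the pseudocount added to libraries at 0.

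The promoter of CYR61 was near the detection limit in every group. It had 0.0962 and 0 (4 and 0 reads) with A771726, 0.104 and 0 (3 and 0 reads) with leflunomide and 0 and 0.104 (0 and 2 reads) with DMSO. A difference between groups was not detectable at this depth. The gene body values of CYR61 were ordered, but the reads behind them were not counted. SPRY4 had 0.505 and 0.246 with A771726, 1.01 and 0.489 (29 and 13 reads) with leflunomide and 0.481 and 0.312 (11 and 6 reads) with DMSO, so that leflunomide lay just above DMSO. IER2 had 0.505 and 0.188 (21 and 6 reads) with A771726, 0.173 and 0.301 (5 and 8 reads) with leflunomide and 0.394 and 0.624 (9 and 12 reads) with DMSO, and here leflunomide lay below DMSO.

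The remaining promoters overlapped between all groups. IER3 had 0.928 and 0.626 with A771726, 1.17 and 0.865 with leflunomide and 0.843 and 1.04 with DMSO. JUNB had 0.807 and 0.188 with A771726, 0.555 and 0.526 with leflunomide and 0.569 and 0.520 with DMSO. The spread within JUNB was wide with A771726 and narrow with leflunomide and DMSO. DUSP6 had 0.337 and 0.313 with A771726, 0.283 and 0.456 with leflunomide and 0.760 and 0.285 with DMSO. The low values belonged to JUN, with 0.0664 and 0.195 with A771726, 0.181 and 0.0376 with leflunomide and 0.188 and 0.0773 with DMSO. Over the 10 promoters, both A771726 libraries lay above both DMSO libraries in SPRY2 alone (10.3% of 5208 genes) and below them in 0 members (16%). Both leflunomide libraries lay above DMSO in FOS and SPRY4 (16.6%) and below it in IER2 (10.5%).

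**Figure D3:**
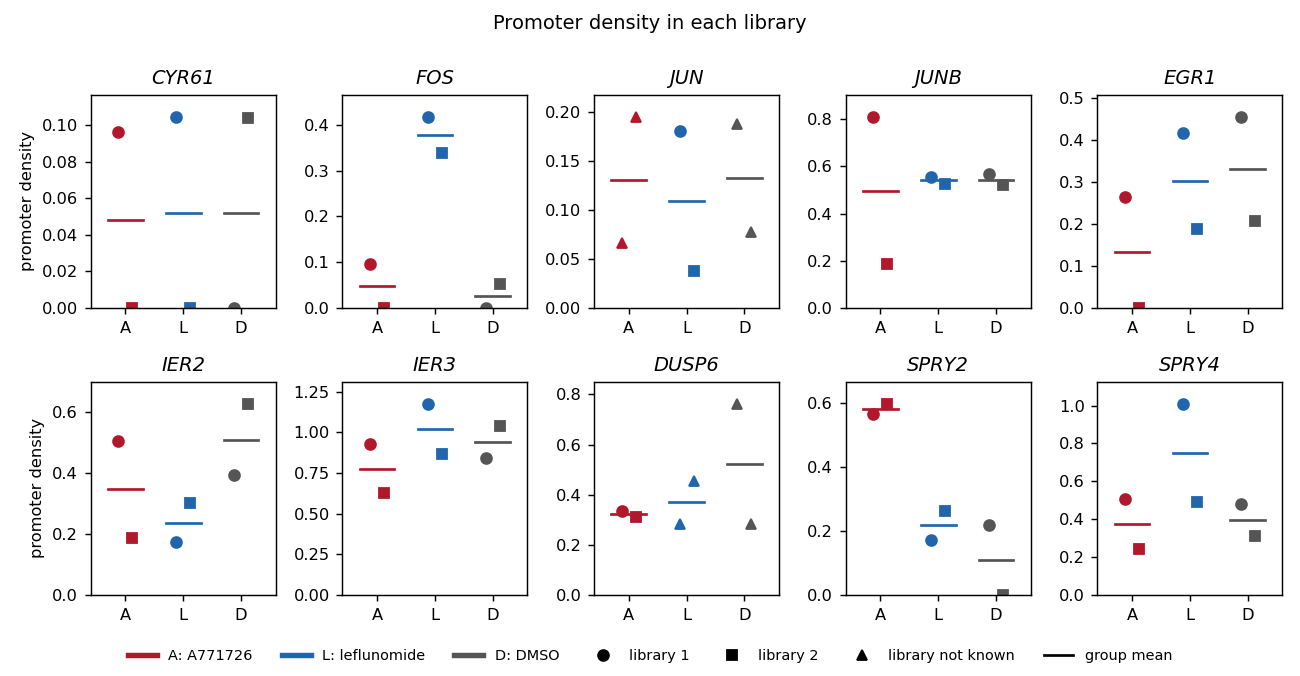
Promoter density (vertical axes, density in the authors' unit) of the 10 genes in each of the 6 libraries, with colours and symbols by group and library; horizontal lines are group means. The A771726 libraries of SPRY2, at 0.564 and 0.595, and the leflunomide libraries of FOS, at 0.416 and 0.338, stand above all other libraries of the same gene, and 7 values lie at 0.

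The traveling ratio combined both. In the authors' means, SPRY2 had a ratio of 5.73 with A771726, 0.985 with leflunomide and 0.421 with DMSO, and EGR1 had 1.57, 3.90 and 6.83 in the same groups. No row of the tables has a DMSO ratio above 7.5, whereas 16.0% of rows do with A771726 and 12.9% with leflunomide, and EGR1 lies near that edge in DMSO. The highest ratio of any row was 7.5 with DMSO, 550 with A771726 and 208 with leflunomide. A finite ratio was listed in all 22442 rows with DMSO, in 20850 with A771726 and in 21493 with leflunomide. Whether rows were selected on DMSO values is not stated in the sources used here and was not tested. All comparisons over DMSO in the ratio, the promoter or the gene body, and their shares of all genes, carry this limit. In single libraries the ratio of SPRY2 was 4.52 and 6.95 with A771726, 0.744 and 1.23 with leflunomide and 0.842 and 0 with DMSO. Both A771726 ratios of SPRY2 lay above all others. The limma estimate, which again rests in part on the DMSO library at 0, was 4.46 (1.52 to 7.41, adjusted p = 0.785) for A771726 over DMSO, and with a pseudocount 5 times larger it was 3.21 (adjusted p = 0.00969), while the adjusted p ran up to 0.999 over all alternatives.

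SPRY2 and CYR61 were the 2 members whose mean ratio was at least 2-fold higher with A771726 than with DMSO (34.6% of 5173 genes), and EGR1 the 1 member at least 2-fold lower (17.1%). With leflunomide over DMSO the ratios of SPRY2, SPRY4 and FOS were at least 2-fold higher (3 members, against 27.9% of genes) and 0 members at least 2-fold lower (15.3%). The ratio of CYR61 was 3.94 and 0 with A771726, 2.46 and 0 with leflunomide and 0 and 1.64 with DMSO, and so rests on 2 to 4 promoter reads in 1 library of each group. In DMSO the ratio of FOS was 0 in one library and 10.2 in the other, on 0 and 1 promoter reads. By limma 0 members had an adjusted p under 0.05 in the ratio, where 0.121%, 0.121% and 0% of 4953 genes did for A771726 over DMSO, leflunomide over DMSO and A771726 over leflunomide; at an unadjusted p under 0.05 there were 242, 128 and 125 genes.

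**Figure D4:**
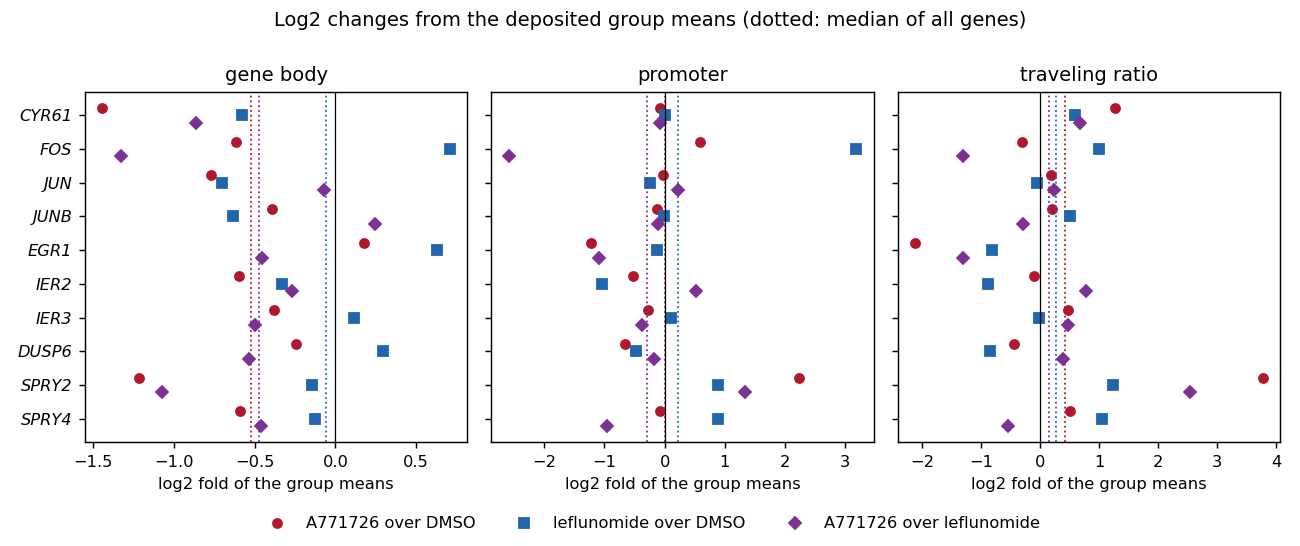
Log2 changes of the deposited group means (horizontal axes) for the 10 genes in gene body density, promoter density and traveling ratio, with circles for A771726 over DMSO, squares for leflunomide over DMSO and diamonds for A771726 over leflunomide; dotted lines are the medians of all genes. CYR61 and SPRY2 lie furthest left in gene body change with A771726 over DMSO, at −1.44 and −1.22, and SPRY2 furthest right in the ratio, at 3.77.

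A771726 and leflunomide, given at the same 25 µM for the same 48 h, were compared in the 10 genes, with p-values adjusted over all genes tested. In gene bodies FOS and SPRY2 were the 2 members at least 2-fold lower with A771726 than with leflunomide in the means (12.6% of 8706 genes), and 0 were at least 2-fold higher (1.05%). Relative to the median gene the changes were −0.85 for FOS and −0.60 for SPRY2, so 0 members were 2-fold apart, and with a pseudocount 5 times larger 1 was. The limma estimates for A771726 over leflunomide were −1.10 (−1.78 to −0.42, adjusted p = 0.325) for SPRY2, −1.34 (−3.004 to 0.33, adjusted p = 0.347) for FOS and −0.88 (−1.69 to −0.07, adjusted p = 0.325) for CYR61. The other 7 genes had limma estimates from −0.75 for IER3 to 0.25 for JUNB, with adjusted p from 0.338 to 0.926. The intervals of JUN (−1.13 to 0.99) and EGR1 (−2.00 to 0.73) were wide, so a missed threshold does not show that the compounds act alike on them. Without A771726 library 2 the estimates of EGR1 and IER3 were 0.11 and 0.14, and centring on the library median gave 0.23 for IER2 and 0.03 for SPRY4. The members' median change was −0.48, as was that of all genes.

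Both A771726 libraries lay below both leflunomide libraries in the gene bodies of CYR61, FOS, IER2, DUSP6, SPRY2 and SPRY4 (6 members, against 55.5% of genes), and above them in 0 members (2.26%). At promoters both A771726 libraries lay above both leflunomide libraries in SPRY2 (7.74% of genes) and below them in FOS (22.5%). By the means, the SPRY2 promoter was at least 2-fold higher with A771726 than with leflunomide (13.5% of genes) and those of FOS and EGR1 at least 2-fold lower (30.6%). Limma gave 1.37 (−0.60 to 3.33) for SPRY2, −3.15 (−6.09 to −0.20) for FOS and −2.09 (−4.15 to −0.04) for EGR1 at the promoter, each with an adjusted p of 0.998. In the ratio SPRY2 was at least 2-fold higher with A771726 than with leflunomide (26.9% of genes) and FOS and EGR1 at least 2-fold lower (20.9%).

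Among 3515 other genes with known libraries, 5 had a gene body profile closest to CYR61, by the Euclidean distance of log2 values over the 6 libraries, each gene centred on its own mean. They were SORD, HYOU1, PVR, GGA3 and PCDHGC4, at distances of 0.26, 0.27, 0.27, 0.28 and 0.28, where the median gene was at 1.29. HYOU1, a chaperone of the endoplasmic reticulum, had 0.0220 and 0.0167 with A771726, 0.0384 and 0.0387 with leflunomide and 0.0501 and 0.0635 with DMSO. PVR, a cell surface adhesion receptor, had 0.0156 and 0.0090 with A771726, 0.0299 and 0.0225 with leflunomide and 0.0325 and 0.0349 with DMSO. Among the members SPRY2 was closest to CYR61, at 0.53, closer than all but 1.82% of genes. SPRY4, IER2 and IER3 followed at 1.05, 1.13 and 1.25, and JUNB, EGR1 and FOS were at 1.73, 2.12 and 2.75, farther than the median gene.

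Related genes of the pathway lay near the median gene as lists. Of 17 other immediate early genes past the filter, 3 were at least 2-fold lower with A771726 than with DMSO, where 18.7% of all genes were. With leflunomide 0 of the 17 were that much lower, against 4.5% of all genes, and 0 were at least 2-fold higher with A771726 or leflunomide, against 0.85% and 1.85%. The 3 were KLF2, a zinc finger factor listed at 0 with A771726, beside 0.0185 with leflunomide and 0.0354 with DMSO, FOSL2, an AP-1 subunit with a log2 change of −1.81, and SRF, which encodes serum response factor, with −1.10. Of 17 other ERK feedback and target genes, 1 was at least 2-fold lower with A771726 than with DMSO, the phosphatase gene DUSP2 at −1.74, and 0 with leflunomide. Of 14 genes of the RAS-RAF-MEK-ERK cascade, the exchange factor gene SOS1 was lower with A771726 at −1.04, and HRAS was higher with leflunomide over DMSO at 1.13. Of 8 YAP and TEAD factors and targets, factors that are also known to drive CYR61, 0 were 2-fold apart from DMSO with either compound. Of the CCN family of matrix proteins, CYR61 was the 1 gene past the filter. The median log2 changes of these lists for A771726 over DMSO were −0.40, −0.53, −0.62 and −0.36, beside −0.52 for all genes, and for leflunomide over DMSO −0.03, 0.10, 0.16 and 0.10, beside −0.06. Beside the shares of all genes above, the counts of 3 of 17, 1 of 17, 1 of 14 and 0 of 8 genes lower with A771726 do not exceed the background. These changes come from the authors' means and were not tested. Several rest on low gene body densities with A771726, 0.00585 for FOSL2, 0.00435 for DUSP2 and 0.00535 for SOS1, beside a pseudocount of 0.0021. SRF had 0.01245 with A771726.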

How the data were processed

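GRO-seq was measured in 6 A375 libraries, 2 in each group. The submitters' processing notes name Bowtie 0.12.9, bedtools and the build hg18. Not given in the sources used here are the window limits, strand use in counting, scaling and annotation release. Promoter and gene body densities (signal) are deposited as averages that the authors took per group, per the file headers. The deposited traveling ratio is the authors' mean over replicates of promoter over gene body density. The spelling A771762 in the file headers was taken to mean A771726.

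Of 22442 rows, 1 was kept per symbol, by the highest mean density over the gene body. IER3 has 3 rows and DUSP6 and SPRY4 have 2 each, identical within a gene. Genes past percentile 30 of the row means were compared as log2 changes of the means, with a pseudocount of 0.0021 for gene bodies and 0.01735 for promoters and none for the ratio, which was compared where it was above 0 in every group.

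Library values were recovered as the pair of densities, whole multiples of 0.0001, that gives both deposited means and the mean ratio to 10 digits. They were recovered in 13115 rows for A771726, 14257 for leflunomide and 12752 for DMSO, and 80.3%, 77.2% and 77.9% of promoter values lay on whole reads. For the members, 29 of 30 pairs had a single solution. FOS with A771726 had 2, chosen by its read steps. The library was not known in 4 pairs (JUN with A771726 and DMSO, DUSP6 with leflunomide and DMSO). Rows with a mean promoter density of 0 in a group could not be solved there.

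Library values were tested with limma 3.58.1 in R 4.3.3 (trend and robust options, log2 of value plus pseudocount, all 6 libraries in 1 fit). The p-values were adjusted by Benjamini and Hochberg over all genes tested, which were 4954 for gene bodies, 5208 for promoters and 4953 for the ratio. In limma the ratio is the difference of the log2 densities. The scripts were tested on simulated data. Alternatives were a larger and no pseudocount, no and stricter filters, centring, limma without its options, genes with the library known and centred overlap (both added after seeing the data) and leaving out each library. The 10 genes are all named. The members and lists were chosen with earlier results of these data known. From the lists, genes at least 2-fold from DMSO in gene body density are named, at most 4 a list, and for CYR61 the 5 closest profiles.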

Additional observations from a re-analysis of the deposited data

How the results depend on the processing

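No paired analysis was possible because the deposited columns carry no replicate letters. Of 228 counts recomputed under the alternatives, 199 stayed within 1.5 times the reported count and 29 moved. Many of these counts, among them nearly all counts of members called, were 0 and stayed 0, so the tally is not a measure of stability. Of the values of single genes, 755 were labelled as unchanged. Another 20 changes of the means moved by at least the spread between libraries, and 15 limma estimates changed sign. Members at least 2-fold apart in gene body density numbered 0 with means centred on the median gene, instead of 2, both for A771726 over DMSO and over leflunomide, and 1 for A771726 over leflunomide with a pseudocount 5 times larger. With that pseudocount 1 promoter instead of 2 was 2-fold apart for each compound over DMSO, and the ratio of A771726 over DMSO had 11 genes called instead of 6, with 1 member (SPRY2). Limma without trend and robust called 0 genes in the promoter and the ratio for each compound over DMSO. Fits with 1 library left out used only the genes with the library known, 3516 for gene bodies, 3705 for promoters and 3515 for the ratio. The counts with all libraries set beside them are from all genes tested. On the genes with the library known, limma with all libraries called 12 promoters for A771726 over DMSO, and otherwise as many as on all genes. Leaving out 1 library in turn, limma called 0 to 76 genes for gene bodies of A771726 over DMSO (0 with all libraries, 76 without A771726 library 1), 0 to 1 for leflunomide over DMSO, 10 to 31 for promoters of A771726 over DMSO (13 with all libraries), with 0 to 1 member, 2 to 38 for leflunomide over DMSO (10) and 0 to 10 for A771726 over leflunomide (0). For the ratio it called 0 to 35 for A771726 over DMSO and 0 to 15 for leflunomide over DMSO (6 each). Members' limma estimates in gene bodies that changed sign when a library was left out ranged, for A771726 over DMSO, from −1.39 to 1.10 for FOS, −0.81 to 0.19 for JUNB, −0.62 to 0.86 for EGR1 and −1.53 to 0.25 for IER3. For leflunomide over DMSO they ranged from −0.054 to 2.44 for FOS, −0.058 to 0.27 for IER3 and −0.33 to 0.11 for SPRY4, and for A771726 over leflunomide from −1.38 to 0.11 for EGR1 and −1.63 to 0.14 for IER3. Centring libraries turned FOS to 0.40 and JUNB to 0.23 for A771726 over DMSO, and IER2 to 0.23 and SPRY4 to 0.031 for A771726 over leflunomide. CYR61 and SPRY2 stayed negative in gene bodies for A771726 over DMSO under all 10 alternatives of the limma fit, at −1.74 to −0.92 and −1.51 to −0.70, with adjusted p from 0.059 to 0.528 and 0.0572 to 0.528. JUN and DUSP6 had no value with a library left out or centred. The causes were not tested. Promoter values of 0 to 3 reads limit what can be seen in CYR61 and FOS. Counting error in their gene body values was not bounded.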
